A study of Mus musculus with 9 samples.

Results

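Hras and 9 genes that report or restrain RAS-ERK signaling were followed across 9 mouse liver tumors. The 10 genes, Hras, Dusp4, Dusp5, Dusp6, Spry1, Spry2, Spry4, Spred1, Etv4 and Etv5, were taken by symbol from the 24421 symbols that each library lists, and all 10 were found. The tumors came from C57BL/6 mice aged 11 weeks and fall into 3 groups of 3, named LHP (tumors 2, 3 and 6), S7HP (tumors 9, 11 and 12) and S7HP+Snail (tumors 13, 14 and 15). The data columns carry Luc (luciferase) in the names of the LHP tumors. Those of S7HP carry Smad7, an inhibitory Smad known to restrain signaling from TGF-β receptors. S7HP+Snail carries Smad7 together with Snail, the repressor of epithelial genes encoded by Snai1. The labels do not spell out H and P. In the published model behind the series they stand for an activated HRAS and a short hairpin RNA against p53, delivered to the liver as transposons in all 3 groups, the controls included. The labels do not give the promoters of the constructs. Nor do they state whether the 3 tumors of a group came from separate mice. A p-value here sets a difference of group means against the spread among these tumors, which may be technical. If tumors shared a mouse, that spread would leave out differences between mice, and the p-value could be too small.

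RAS proteins are small GTPases that, when bound to GTP, recruit RAF and start the kinase cascade RAF, MEK and ERK. ERK then switches on genes whose products hold the pathway back. DUSP4, DUSP5 and DUSP6 are phosphatases that inactivate ERK, Sprouty proteins (SPRY) dampen receptor tyrosine kinase input to RAS, and SPRED1 brings the RAS GTPase-activating protein neurofibromin to the membrane. ETV4 and ETV5 are ETS transcription factors whose genes ERK also switches on. Levels of these RNAs are widely read as a gauge of ERK output. Some SPRED and Sprouty genes, SPRY2 among them, but not all, are known for low expression in human liver cancer.

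Of the 10 genes, Spry1 was 3.31-fold higher and Spred1 was 1.79-fold lower in S7HP than in LHP. With Snail added, Spred1 was 2.02-fold higher than in S7HP, back within the LHP range or above it. Spry1 was 4.63-fold and Dusp6 2.28-fold higher in S7HP+Snail than in LHP. The call of Spred1 with Snail and that of Dusp6 were each lost in 11 of 16 alternatives, 8 of them the omission of 1 library, and each of the other calls was lost without some single libraries. Hras, Dusp4, Spry2, Spry4, Etv4 and Etv5 passed the test in none of the 3 comparisons when all 9 libraries were fitted, and Dusp5 was too low to test. The 10 genes thus did not move as a block: in S7HP the Sprouty gene Spry1 rose while Spred1 fell. Each value is the log2 of 1 plus a read count that was quantile-normalized between libraries, a call is a Benjamini-Hochberg adjusted p under 0.05 in limma over 14215 genes, and 9 of the 10 genes passed the filter on low values. Folds are powers of 2 of the differences between group means on that log2 scale.

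**Figure D1:**
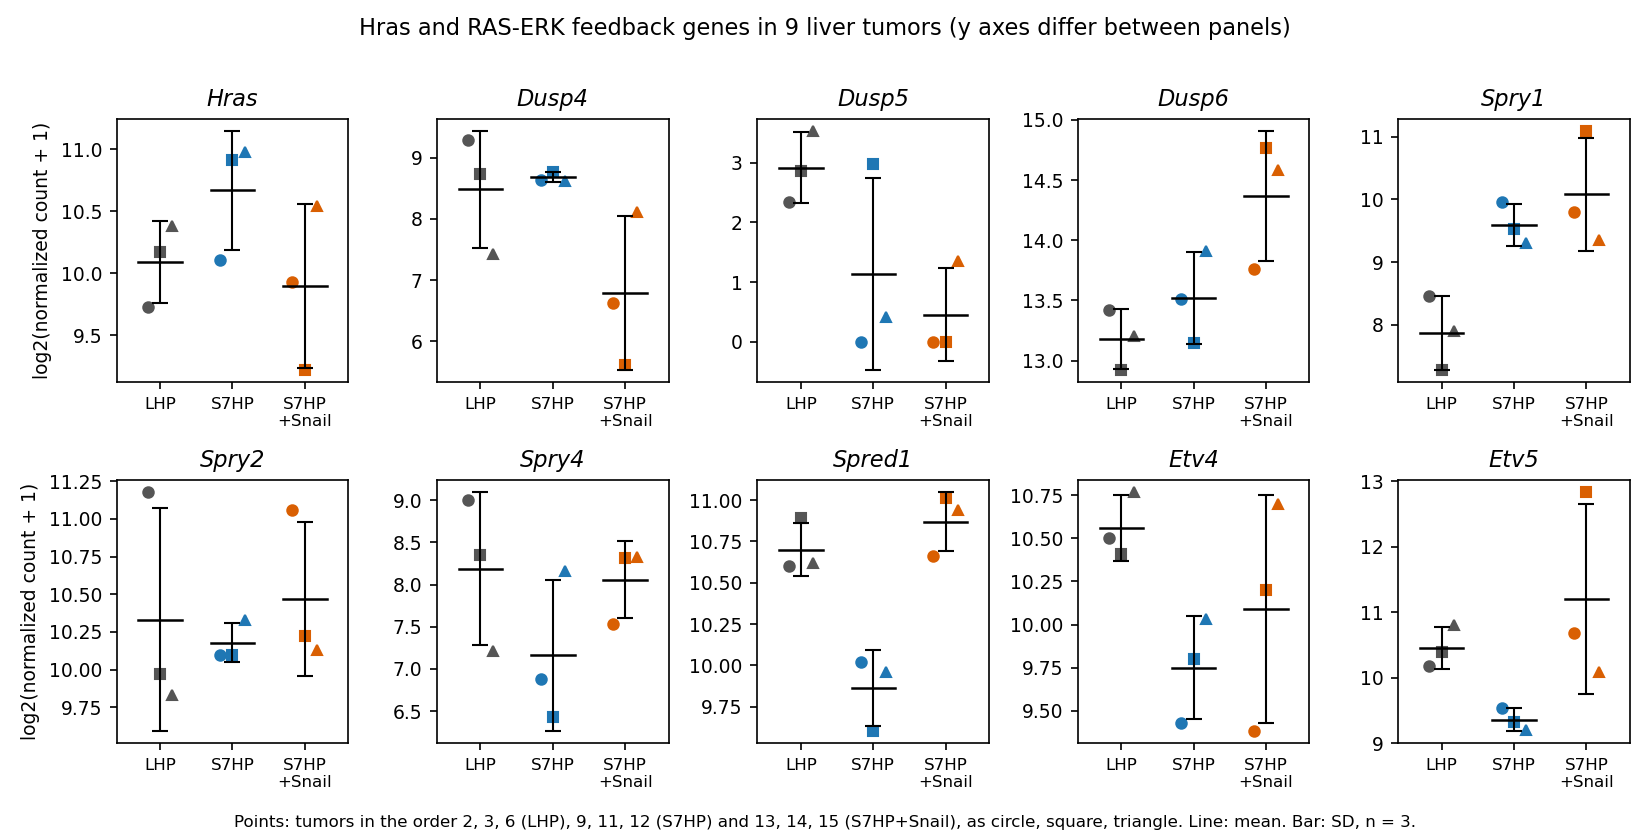
Log2(normalized count + 1) of the 10 genes in each of the 9 tumors, by group, with the mean and SD (n = 3 per group). The LHP tumors lie below all other tumors for Spry1, the S7HP tumors lie below all others for Spred1 and Etv5, and Dusp5 is between 0 and 3.54.

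All 9 libraries share 1 distribution by the deposited normalization, so library depth is not preserved and only relative levels can be compared. The first principal component of the tested genes (40.1% of the variance) kept the 3 groups apart. On the second (18.6%) S7HP+Snail tumor 14 stood apart at 118.1, against 31.3 and 25.9 for tumors 13 and 15. The mean of Smad7 was 10.07 ± 0.52 (SD) in LHP, 6.52 ± 0.27 in the tumors labelled S7HP and 7.36 ± 0.62 in those labelled S7HP+Snail, and that of Snai1 was 10.69 ± 0.66, 6.48 ± 0.39 and 8.10 ± 0.69. Smad7 was thus lower in both groups labelled for it than in LHP, and Snai1 was lower in S7HP+Snail than in LHP (adjusted p at most 0.00931 in limma). The difference of Snai1 between S7HP+Snail and S7HP did not pass (limma, Benjamini-Hochberg adjusted p = 0.0850). Whether the constructs carry the parts of the genes that were counted is not stated, so the labels are not checked by these values, and the group names below are those of the labels. Trp53 was at 6.37 ± 0.23, 6.25 ± 0.29 and 5.53 ± 0.33. Defining markers of hepatocytes were present in every library. The summed normalized count of 10 hepatocyte markers was 23966 to 41114 in LHP, 95422 to 306941 in S7HP and 77639 to 187165 in S7HP+Snail. That of 9 stellate cell and fibroblast markers was 37943 to 52638, 6993 to 10754 and 13475 to 21358, and that of 9 endothelial markers 3129 to 4528, 1479 to 2868 and 3081 to 4834. In bulk tumors, fewer cells of a type and less RNA per cell cannot be told apart.

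Promoter sequences are shown for the 3 genes that passed a test and for Etv5, the gene whose value in S7HP+Snail tumor 14 lay furthest from its mean over the 9 tumors. RefSeq promoters on GRCm38.p6, from 250 bases before to 50 after the annotated start, were matched by symbol for 7 of the 10 genes (8 promoters, 2 of them of Etv5). Capitals mark matches on either strand to 4 motifs: GGAAGT (ETS), TGANTCA (AP-1), CAGGTG (the E-box bound by Snail) and GTCTAGAC (the Smad palindrome). No motif overlapped another in the sequences printed, and each is written 5′ to 3′ on the strand of the gene.
Spry1, chr3:37639697-37639996, plus strand: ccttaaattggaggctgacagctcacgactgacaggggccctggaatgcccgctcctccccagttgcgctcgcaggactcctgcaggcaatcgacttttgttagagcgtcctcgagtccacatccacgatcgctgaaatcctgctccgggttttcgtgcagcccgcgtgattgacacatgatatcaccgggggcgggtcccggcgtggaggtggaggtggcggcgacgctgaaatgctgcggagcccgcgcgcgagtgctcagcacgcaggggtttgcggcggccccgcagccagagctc
Spred1, chr2:117120821-117121120, plus strand: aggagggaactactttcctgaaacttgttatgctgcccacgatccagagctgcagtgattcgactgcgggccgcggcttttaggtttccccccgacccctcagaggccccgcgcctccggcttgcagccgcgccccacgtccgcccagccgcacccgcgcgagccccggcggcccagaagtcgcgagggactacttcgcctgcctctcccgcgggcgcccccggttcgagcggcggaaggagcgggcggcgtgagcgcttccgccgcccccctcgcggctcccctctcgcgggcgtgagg
Dusp6, chr10:99262981-99263280, plus strand: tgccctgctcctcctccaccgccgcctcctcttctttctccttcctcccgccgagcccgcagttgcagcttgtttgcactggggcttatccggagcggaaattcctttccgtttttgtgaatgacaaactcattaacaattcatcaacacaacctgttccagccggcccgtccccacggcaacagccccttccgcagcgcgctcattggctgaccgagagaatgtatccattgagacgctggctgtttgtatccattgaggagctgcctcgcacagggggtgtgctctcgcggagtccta
Etv5, second promoter, chr16:22438319-22438618, minus strand: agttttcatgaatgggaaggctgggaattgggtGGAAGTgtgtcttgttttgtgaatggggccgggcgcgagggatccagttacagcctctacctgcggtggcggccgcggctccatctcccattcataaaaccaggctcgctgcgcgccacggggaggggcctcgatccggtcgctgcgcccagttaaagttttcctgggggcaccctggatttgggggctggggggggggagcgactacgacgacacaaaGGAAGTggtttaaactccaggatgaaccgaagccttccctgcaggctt
The ETS letters occurred 2 times in the second Etv5 promoter, starting at positions -217 and 3 relative to the start, and 1 time in the Dusp5 promoter. None of the 4 motifs had a match in the other 6 promoters, those of Hras, Spry1, Spry2, Spred1 and Dusp6 and the first of Etv5. Over 32851 promoters of the same length, 23.8% held the ETS letters, 7.81% the AP-1 letters, 20.2% the Snail E-box and 0.213% the Smad palindrome. No match says only that these letters are not in this window. The Spred1 window ends at 117121120, before the start of Spred1 at 117121374 in the GENCODE annotation that gives the gene positions below.

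Hras, which encodes the RAS protein that the model activates, lies on chromosome 7, 141189105 to 141194005 (minus strand, GRCm38), and no other annotated gene overlaps it. Its log2 value was 9.73, 10.17 and 10.38 in LHP tumors 2, 3 and 6, 10.11, 10.91 and 10.98 in S7HP tumors 9, 11 and 12, and 9.93, 9.22 and 10.54 in S7HP+Snail tumors 13, 14 and 15. The groups overlapped in every pair, with S7HP tumors 11 and 12 highest and S7HP+Snail tumor 14 lowest. The mean was 10.09 ± 0.33 for LHP (SD, n = 3 here and below), 10.67 ± 0.48 for S7HP, and 9.90 ± 0.66 with Snail. S7HP minus LHP was 0.57 ± 0.37 (SE; 95% interval -0.25 to 1.40; limma, Benjamini-Hochberg adjusted p = 0.303). S7HP+Snail minus S7HP was -0.77 ± 0.37 (-1.59 to 0.06; adjusted p = 0.318), and S7HP+Snail minus LHP was -0.20 (-1.02 to 0.63; adjusted p = 0.778), or 0.14 without S7HP+Snail tumor 14 (adjusted p = 0.841). Each interval leaves room for a change of more than 2-fold in 1 direction, so equal levels are not shown. Whether reads of an HRAS construct were counted for the mouse gene is not stated, so the value is no measure of the construct.

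Among the phosphatases, Dusp6, the cytoplasmic phosphatase that acts on ERK, rose from LHP to S7HP+Snail. Dusp6 lies on chromosome 10, 99263231 to 99267489 (plus strand, GRCm38). It was at 13.42, 12.92 and 13.20 in LHP, 13.51, 13.15 and 13.91 in S7HP and 13.76, 14.77 and 14.58 in S7HP+Snail, each in tumor order. All 3 S7HP+Snail tumors lay above all 3 LHP tumors, while S7HP lay between and overlapped both groups. S7HP+Snail exceeded LHP by 1.19 ± 0.31 (SE; 95% interval 0.49 to 1.88; limma, Benjamini-Hochberg adjusted p = 0.0494). The steps from LHP to S7HP (0.34 ± 0.31, adjusted p = 0.474) and from S7HP to S7HP+Snail (0.85 ± 0.31, adjusted p = 0.192) did not pass. The call of Dusp6 against LHP was close to the threshold and was lost without any 1 of LHP tumors 2, 3 and 6, S7HP tumors 9, 11 and 12 and S7HP+Snail tumors 14 and 15, with adjusted p from 0.0235 to 0.165 over the 9 libraries left out. It was also lost with no filter on low values, with no intensity trend and with only the 2 groups fitted (adjusted p = 0.154, 0.0795 and 0.0714).

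Dusp4, a nuclear phosphatase of ERK, had its lowest values with Snail. It was at 9.29, 8.73 and 7.43 in LHP, 8.64, 8.76 and 8.62 in S7HP, and 6.63, 5.61 and 8.12 in S7HP+Snail. The S7HP tumors lay within 0.14 of each other and above all 3 S7HP+Snail tumors, while LHP overlapped both groups. S7HP+Snail minus S7HP was -1.89 ± 0.63 (SE; 95% interval -3.29 to -0.49; limma, Benjamini-Hochberg adjusted p = 0.150) and S7HP+Snail minus LHP was -1.70 ± 0.63 (adjusted p = 0.130). Without S7HP+Snail tumor 15, the highest of its group, these differences were -2.56 and -2.36 and passed (adjusted p = 0.0420 and 0.0375). S7HP minus LHP was 0.19 ± 0.63 (adjusted p = 0.858) and changed sign, to -0.33, without LHP tumor 6 (adjusted p = 0.770). The group mean of Dusp6 was highest in S7HP+Snail and that of Dusp4 lowest, though of these differences only that of Dusp6 from LHP passed with all 9 libraries fitted.

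Dusp5, a nuclear phosphatase specific for ERK, did not pass the filter, which asked for 3 or more libraries at or above 4 on the log2 scale. It was at 2.35, 2.87 and 3.54 in LHP, at 0, 2.98 and 0.42 in S7HP, and at 0, 0 and 1.35 in S7HP+Snail. It was listed at 0 in 3 of 9 libraries. The third lowest value above 0 in a library, which is that of 3 reads if successive values are successive reads, was 1.22 to 2.64, so most of these values rest on few reads and no difference was computed.

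Of the Sprouty genes, which dampen receptor input to RAS, Spry1 alone was called. Spry1 (chromosome 3, 37639947 to 37644598, plus strand, GRCm38) was at 8.45, 7.27 and 7.89 in LHP, 9.96, 9.53 and 9.30 in S7HP, and 9.80, 11.10 and 9.35 in S7HP+Snail. All 6 tumors labelled S7HP or S7HP+Snail lay above all 3 LHP tumors, and the S7HP and S7HP+Snail tumors overlapped. Spry1 rose by 1.73 ± 0.46 (SE; 95% interval 0.70 to 2.75) in S7HP and by 2.21 ± 0.46 (1.19 to 3.24) in S7HP+Snail relative to LHP (limma, Benjamini-Hochberg adjusted p = 0.0286 and 0.0238). Both comparisons use the same 3 LHP tumors. S7HP+Snail minus S7HP was 0.49 ± 0.46 (-0.54 to 1.51, adjusted p = 0.624), and -0.02 without S7HP+Snail tumor 14, the highest of all 9 (adjusted p = 0.989). Omitting LHP tumor 3, LHP tumor 6, S7HP tumor 9 or S7HP tumor 11 ended the call in S7HP (adjusted p up to 0.101), as did fitting with no filter on low values (0.122). The call in S7HP+Snail ended without LHP tumor 3 or 6 (adjusted p up to 0.0902), with no filter (0.119) and with only the 2 groups fitted (0.0532). The hepatocyte marker sums divided the tumors in the same way, at most 41114 in LHP and at least 77639 in the others. So did the stellate cell and fibroblast marker sums, at least 37943 in LHP and at most 21358 in the others. The part of these markers in the Spry1 difference was not tested. The gene Gm42922 overlaps Spry1 on the other strand in the annotation, and the labels do not state whether counting used the strand, so reads of the pair cannot be told apart.

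Spry2 was at 11.18, 9.97 and 9.83 in LHP, 10.10, 10.10 and 10.33 in S7HP, and 11.06, 10.22 and 10.13 in S7HP+Snail. The groups overlapped throughout, and LHP tumor 2 and S7HP+Snail tumor 13 stood above the other 7. Its differences were -0.15 ± 0.38 (SE) for S7HP minus LHP, 0.30 ± 0.38 for S7HP+Snail minus S7HP and 0.14 ± 0.38 for S7HP+Snail minus LHP, and none passed (limma, Benjamini-Hochberg adjusted p = 0.811, 0.728 and 0.845). Spry4 was at 9.00, 8.35 and 7.21 in LHP, 6.88, 6.43 and 8.16 in S7HP, and 7.53, 8.32 and 8.33 in S7HP+Snail. S7HP tumors 9 and 11 held the 2 lowest values, but tumor 12 lay among the other groups. S7HP minus LHP was -1.03 ± 0.55 for Spry4 (SE; 95% interval -2.25 to 0.19; adjusted p = 0.214), and S7HP+Snail minus S7HP was 0.90 ± 0.55 (-0.32 to 2.12; adjusted p = 0.430). So in S7HP Spry1 rose, while Spry2 and Spry4 had differences below 0 that did not pass. The differences between these genes were not tested.

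Spred1 (chromosome 2, 117121374 to 117182279, plus strand, GRCm38) varied little within groups, with SDs of 0.16, 0.23 and 0.18, and separated S7HP from the other tumors. It was at 10.60, 10.89 and 10.62 in LHP, 10.02, 9.60 and 9.96 in S7HP, and 10.66, 11.01 and 10.94 in S7HP+Snail. The 3 S7HP tumors lay below all 6 others, and LHP and S7HP+Snail overlapped. Spred1 fell by 0.84 ± 0.21 in S7HP relative to LHP (SE; log2 difference -0.84, 95% interval -1.31 to -0.37; limma, Benjamini-Hochberg adjusted p = 0.0226). It rose by 1.01 ± 0.21 in S7HP+Snail relative to S7HP (0.54 to 1.49; adjusted p = 0.0411). Both comparisons use the same 3 S7HP tumors, so the fall and the rise share their measurement of S7HP. S7HP+Snail minus LHP was 0.17 ± 0.21 (-0.30 to 0.64; adjusted p = 0.654). Omitting LHP tumor 3, LHP tumor 6 or S7HP tumor 11 ended the call of the fall (adjusted p up to 0.0870). That of the rise held only when S7HP+Snail tumor 13 was the 1 library omitted (adjusted p from 0.0497 to 0.139 over the 9 libraries), with a difference between 0.88 and 1.12. It also ended with no filter (0.0808), no intensity trend (0.0732) or only the 2 groups fitted (0.114). The endothelial marker sums also separated S7HP from the other tumors, at most 2868 in S7HP and at least 3081 elsewhere. So did the stellate cell and fibroblast marker sums, at most 10754 in S7HP and at least 13475 elsewhere. The part of these markers in the result was not tested.

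The ETS factors Etv4 and Etv5 had their lowest means in S7HP as well. Etv5 was at 10.18, 10.39 and 10.80 in LHP, 9.54, 9.33 and 9.20 in S7HP, and 10.68, 12.84 and 10.08 in S7HP+Snail. The 3 S7HP tumors lay below all 6 others, and S7HP+Snail tumor 14 was 2.16 above the next tumor of its group. As for Spred1, the endothelial and the stellate cell and fibroblast marker sums also separated S7HP from the others. The part of these markers in the Etv5 values was not tested. S7HP minus LHP was -1.10 ± 0.58 (SE; limma, Benjamini-Hochberg adjusted p = 0.213). With tumor 14 left out of the fit the same difference of -1.10 passed (adjusted p = 0.0154), as it did with only the 6 LHP and S7HP libraries fitted (adjusted p = 0.0124). The difference is the same in these fits, and its error estimate is not. S7HP+Snail minus S7HP was 1.84 ± 0.58 for Etv5 (95% interval 0.54 to 3.15; adjusted p = 0.134), 1.02 without tumor 14, and 2.40 without tumor 15, where it passed (adjusted p = 0.0490). S7HP+Snail minus LHP was 0.74 ± 0.58 (adjusted p = 0.461) and changed sign, to -0.08, without tumor 14 (adjusted p = 0.905).

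Etv4 was at 10.50, 10.41 and 10.77 in LHP, 9.43, 9.80 and 10.03 in S7HP, and 9.38, 10.20 and 10.70 in S7HP+Snail. All S7HP tumors lay below all LHP tumors, and the S7HP+Snail tumors spread across both. S7HP minus LHP was -0.81 ± 0.33 (SE; 95% interval -1.54 to -0.08; limma, Benjamini-Hochberg adjusted p = 0.110), and it passed when only the 6 libraries of these groups were fitted (adjusted p = 0.0384). S7HP+Snail minus S7HP was 0.34 ± 0.33 (adjusted p = 0.631) and S7HP+Snail minus LHP was -0.47 ± 0.33 (adjusted p = 0.405).

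**Figure D2:**
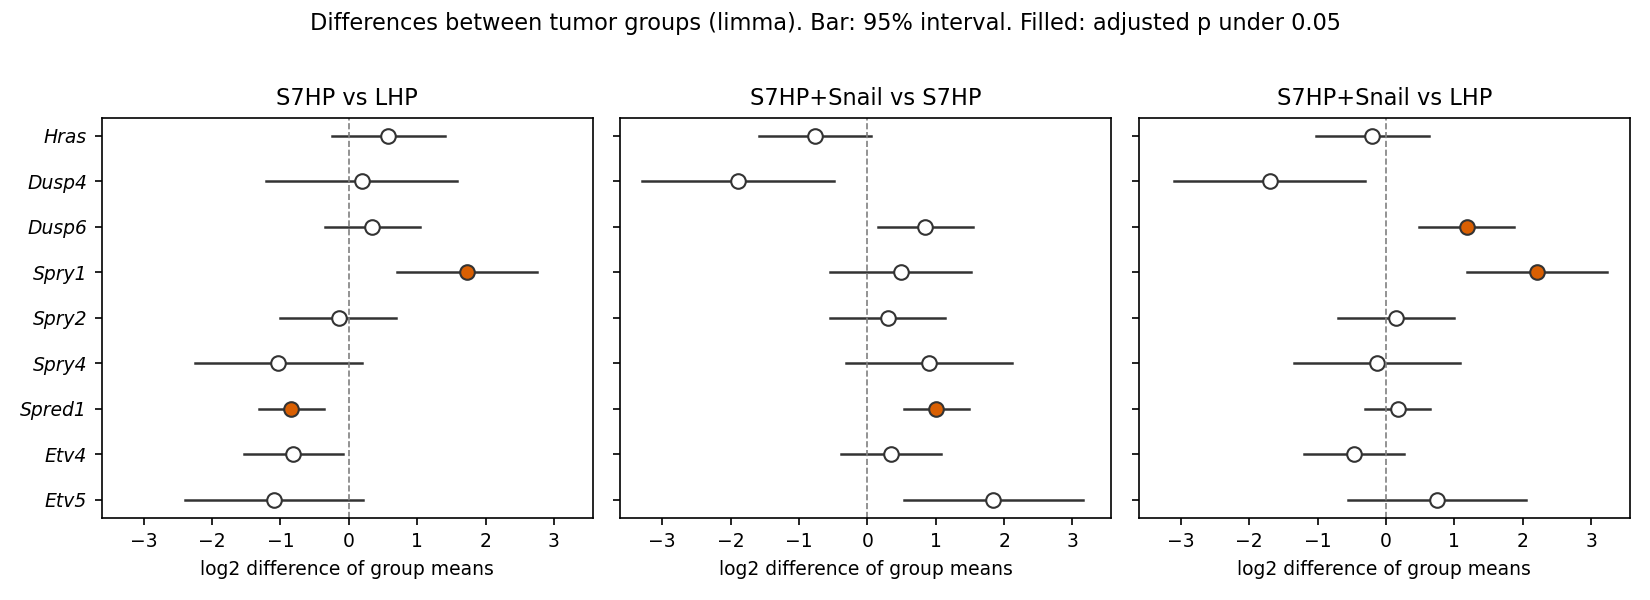
Log2 differences between group means for the 9 tested genes in the 3 comparisons, with 95% intervals from limma. Filled points passed at an adjusted p under 0.05: Spry1 and Spred1 in S7HP against LHP, Spred1 in S7HP+Snail against S7HP, and Spry1 and Dusp6 in S7HP+Snail against LHP.

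Set against all tested genes, the 10 genes did not stand out by number in S7HP. In S7HP against LHP, 2 of the 9 tested genes were called, against 19.0% of the 14215 tested genes. Of these 1 was higher, against 9.47%, and 1 lower, against 9.54%, and the groups did not overlap for 4 of 9, against 42.1%. In S7HP+Snail against S7HP, 1 of 9 was called, against 2.30%. It was higher, against 1.01%, with 0 lower, against 1.29%, and the groups did not overlap for 3 of 9 (Spred1, Etv5 and Dusp4), against 20.5%. In S7HP+Snail against LHP, 2 of 9 were called, against 7.22%. Both were higher, against 3.35%, with 0 lower, against 3.87%, and the groups did not overlap for 2 of 9, against 30.5%. The median log2 difference over the 9 genes was -0.15, 0.49 and 0.14 in these comparisons, against 0.02, -0.02 and 0.00 over all tested genes. With Snail, 7 of 9 differences from S7HP were above 0, and those of Hras and Dusp4 were below 0. The comparisons share groups, so these values are not independent of each other. S7HP had the lowest mean of the 3 groups for 5 of the 10 genes (Spry2, Spry4, Spred1, Etv4 and Etv5), LHP for Dusp6 and Spry1, and S7HP+Snail for Hras, Dusp4 and Dusp5. The counts of signs and of lowest means were not set against all tested genes. Nothing particular to these genes is read from those counts.

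Some cell type markers also differed between the groups. In S7HP against LHP, 6 of 9 stellate cell and fibroblast markers fell and 0 rose. Of 10 hepatocyte markers, 5 rose and 0 fell. Of 9 endothelial markers 1 fell, of 8 macrophage markers 1 fell, and 0 of either list rose. Of 7 cholangiocyte markers, 1 rose and 1 fell. The endothelial, macrophage and cholangiocyte counts lie near the shares over all tested genes, 9.54% lower and 9.47% higher. In S7HP+Snail against S7HP, 1 of 9 endothelial markers rose, Plvap, and 0 fell, against 1.01% and 1.29% of all tested genes. At an unadjusted p under 0.05 in limma, 5 of the 9 were higher (Pecam1, Cdh5, Kdr, Plvap and Emcn). The share of all tested genes at that unadjusted threshold was not computed, so nothing particular to the list is read from this count. The median log2 difference of the endothelial list was 0.94. No hepatocyte, stellate cell, cholangiocyte or macrophage marker passed (limma, with 2, 1, 1 and 0 at an unadjusted p under 0.05). Plvap was also the endothelial marker that fell in S7HP. Relative to LHP, 3 of 9 stellate cell and fibroblast markers fell in S7HP+Snail, against 3.87% of all tested genes. Of 10 hepatocyte markers 2 rose, against 3.35%, and no other marker passed. The macrophage sums were 6528 to 11000 in LHP, 3449 to 6093 in S7HP and, with Snail, 4722 to 9980. Of 5 tested lymphocyte and 6 erythroid markers 0 passed in any comparison (limma, with at most 1 of a list at an unadjusted p under 0.05). The part of any of these marker lists in the values of Spry1, Spred1, Dusp6 or any other gene named here was not tested.

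S7HP+Snail tumor 14 held the extreme value of all 9 tumors for Hras (9.22, lowest), Dusp4 (5.61, lowest), Dusp6 (14.77), Spry1 (11.10), Spred1 (11.01) and Etv5 (12.84, all highest). It did not stand outside its group for Spry2 (10.22), Spry4 (8.32) or Etv4 (10.20). Its distance from the nearest tumor of its group was 2.16 for Etv5, 1.30 for Spry1, -1.02 for Dusp4 and -0.71 for Hras, but 0.19 for Dusp6 and 0.07 for Spred1. The high Spred1 and Dusp6 values with Snail were thus present in tumors 14 and 15 alike, and those of Etv5 and Spry1 were largest in tumor 14. The same tumor had a cholangiocyte marker sum of 27058, against 111274 and 332668 in tumors 13 and 15, and a hepatocyte marker sum of 187165, against 94280 and 77639. The part of these markers in its values was not tested.

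**Figure D3:**
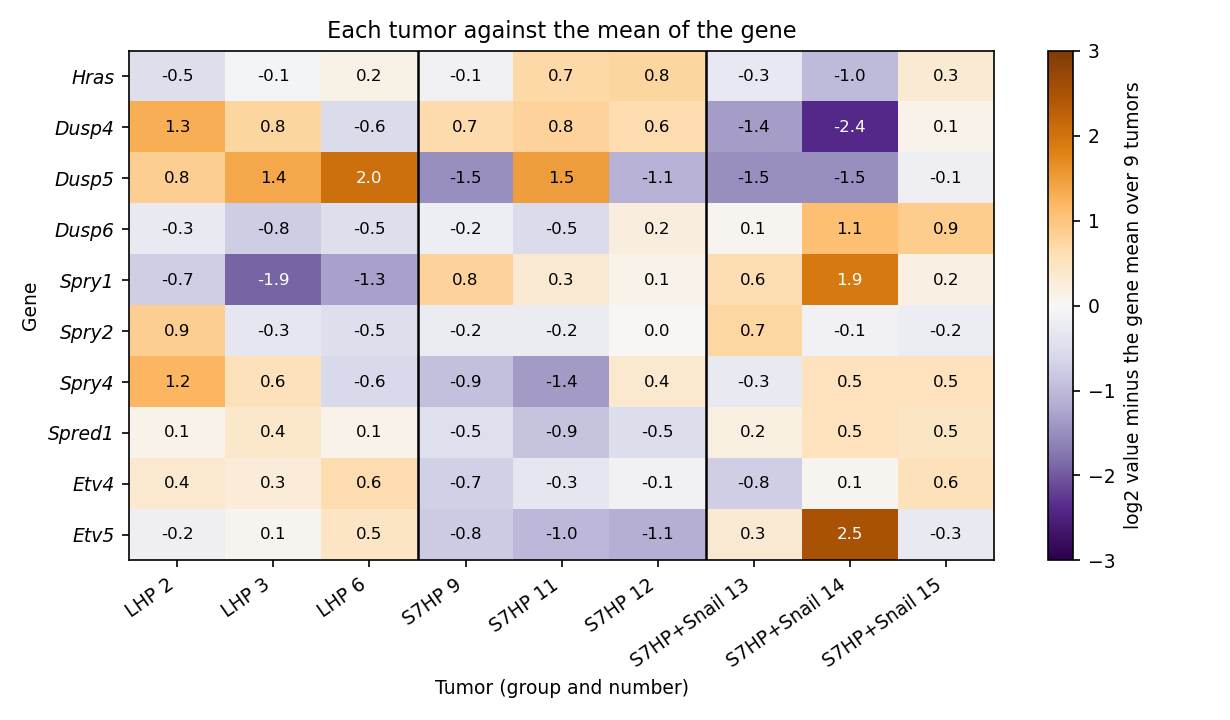
Log2 value of each of the 10 genes in each tumor minus the mean of the gene over the 9 tumors. S7HP+Snail tumor 14 holds the highest value of Etv5 (12.84 on the log2 scale) and the lowest of Dusp4 (5.61), and the 3 S7HP tumors are below the mean for Spred1 and Etv5.

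The rest of the RAS-ERK pathway was followed with 50 genes in 5 lists, of which 48 passed the filter. In S7HP against LHP 6 of 48 fell and 0 rose, against 9.54% of all tested genes called lower and 9.47% higher. With Snail added to S7HP, 1 of 48 rose and 1 fell, against 1.01% and 1.29%. In S7HP+Snail against LHP 3 of 48 fell and 0 rose, against 3.87% and 3.35%. Nothing particular to the pathway is read from these counts. Of the ERK cascade itself, from the adaptors and exchange factors to RAF, MEK, ERK and RSK, 0 of 15 tested genes passed in any comparison (limma, with 2, 3 and 0 at an unadjusted p under 0.05). Its largest differences were those of Sos1, a RAS exchange factor, at -0.84 ± 0.28 (SE) and Rps6ka1, an RSK kinase, at 0.80 ± 0.50 in S7HP minus LHP (limma, Benjamini-Hochberg adjusted p = 0.0609 and 0.289). In S7HP+Snail minus S7HP they were the adaptor Gab1 at 1.34 ± 0.43 and the RSK kinase Rps6ka3 at 1.33 ± 0.40 (adjusted p = 0.137 and 0.115).

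Mras, a RAS relative that works with SHOC2 to activate RAF, had the largest differences of 4 RAS family genes in both comparisons with S7HP. It was at 8.51, 8.87 and 8.66 in LHP, 5.73, 6.23 and 6.59 in S7HP, and 7.94, 8.42 and 9.49 in S7HP+Snail. The S7HP tumors lay below all 6 others, as for Spred1. The endothelial and the stellate cell and fibroblast marker sums separated S7HP in the same way. The part of these markers in the Mras values was not tested. Mras fell by 2.50 ± 0.40 (log2 difference -2.50) in S7HP relative to LHP (SE; limma, Benjamini-Hochberg adjusted p = 0.00397) and kept this call under each of the 16 alternatives. It rose by 2.43 ± 0.40 with Snail (adjusted p = 0.0188), a call lost without S7HP tumor 9 or 11 (adjusted p up to 0.0786) and, up to 0.104, with no filter or only the 2 groups fitted. Mras was the only 1 of the 4 called in either comparison. Over all tested genes 9.54% were called lower in S7HP against LHP, and 1.01% higher in S7HP+Snail against S7HP. Between S7HP+Snail and LHP 0 of the 4 passed in limma, with 1 at an unadjusted p under 0.05, and Mras was at -0.07 while Nras, the RAS gene with the largest difference there, was at -0.64 (adjusted p = 0.931 and 0.0812).

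Of 11 tested brakes on RAS and RAF, 2 fell in S7HP relative to LHP and 0 rose, against 9.54% and 9.47% of all tested genes. Rasa1, a RAS GTPase-activating protein, was at -1.71 ± 0.42 (SE), and its relative Rasal2 at -1.53 ± 0.38 (limma, Benjamini-Hochberg adjusted p = 0.0218 and 0.0225). Rasal2 also fell in S7HP+Snail relative to LHP, by 2.24 ± 0.38 (log2 difference -2.24; adjusted p = 0.0108). There 1 of 11 fell and 0 rose, against 3.87% and 3.35% of all tested genes. Rasa1 lost its call when LHP tumor 2, LHP tumor 3 or S7HP tumor 11 was omitted (adjusted p up to 0.0812). Rasal2 lost it in S7HP when LHP tumor 2, LHP tumor 3, S7HP tumor 9 or S7HP tumor 12 was omitted (up to 0.0859) and in S7HP+Snail when LHP tumor 3 was (0.0555). With no filter on low values none of these calls held. With Snail added to S7HP 0 of 11 passed in limma, with 1 at an unadjusted p under 0.05, Rasa1, at 1.09 ± 0.42 (adjusted p = 0.218). Spry3, the other Sprouty gene, was listed at 0 in all 9 libraries.

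Of 8 other MAP kinase phosphatases, 1 fell and 0 rose in S7HP+Snail relative to S7HP, against 1.29% and 1.01% of all tested genes. Relative to LHP, 1 fell and 0 rose in S7HP+Snail, against 3.87% and 3.35%. Both calls were those of Dusp7. Dusp7, a close relative of Dusp6 that also acts on ERK, was at 9.49, 9.40 and 9.35 in LHP, 8.83, 8.79 and 9.27 in S7HP, and 7.90, 7.44 and 8.02 in S7HP+Snail. The S7HP+Snail tumors lay below all 6 others, where those of Dusp6 lay above all LHP tumors. Dusp7 fell by 1.63 ± 0.25 (log2 difference -1.63) in S7HP+Snail relative to LHP (SE; limma, Benjamini-Hochberg adjusted p = 0.00657), under each of the 16 alternatives. Relative to S7HP it fell by 1.18 ± 0.25 (log2 difference -1.18; adjusted p = 0.0411), a call lost without any 1 library except S7HP+Snail tumor 15 (adjusted p from 0.0408 to 0.128), and with no filter, no intensity trend or only the 2 groups fitted. In S7HP against LHP 2 of 8 fell and 0 rose, against 9.54% and 9.47% of all tested genes, with Dusp2 at -1.23 ± 0.35 and Dusp14 at -1.57 ± 0.48 (adjusted p = 0.0346 and 0.0480). The call of Dusp2 ended with no filter and when any 1 LHP tumor, S7HP tumor 9 or S7HP tumor 11 was omitted (up to 0.126). That of Dusp14 held only when S7HP+Snail tumor 13 or 14 was the 1 library omitted (otherwise up to 0.148), and it ended with no filter or no intensity trend.

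Of 10 other genes that ERK is known to switch on, 1 fell in S7HP relative to LHP, against 9.54% of all tested genes, 1 fell in S7HP+Snail relative to LHP, against 3.87%, and 0 rose. Etv1, the third factor of the Etv4 and Etv5 family, was at 7.05, 8.53 and 7.55 in LHP, 4.20, 6.75 and 4.50 in S7HP, and 7.01, 8.88 and 6.91 in S7HP+Snail. The S7HP tumors lay below all 6 others, as for Etv5 and for the endothelial and the stellate cell and fibroblast marker sums. The part of these markers in the Etv1 values was not tested. Etv1 fell by 2.56 ± 0.76 (log2 difference -2.56) in S7HP relative to LHP (SE; limma, Benjamini-Hochberg adjusted p = 0.0442), a call that held only when S7HP tumor 11 or S7HP+Snail tumor 14 or 15 was the 1 library omitted (otherwise up to 0.144). It ended with no filter, a pseudocount of 16 or no intensity trend (up to 0.167). S7HP+Snail minus S7HP was 2.45 ± 0.76 for Etv1 (adjusted p = 0.130). Fosl1, an AP-1 subunit stabilized by ERK, fell by 4.12 ± 0.82 (log2 difference -4.12) in S7HP+Snail relative to LHP (adjusted p = 0.0202), from 9.92, 10.41 and 10.60 to 5.95, 4.93 and 7.70. Its call was lost without any 1 LHP tumor or S7HP+Snail tumor 13 (highest adjusted p 0.0803) or with no filter (0.120).

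**Figure D4:**
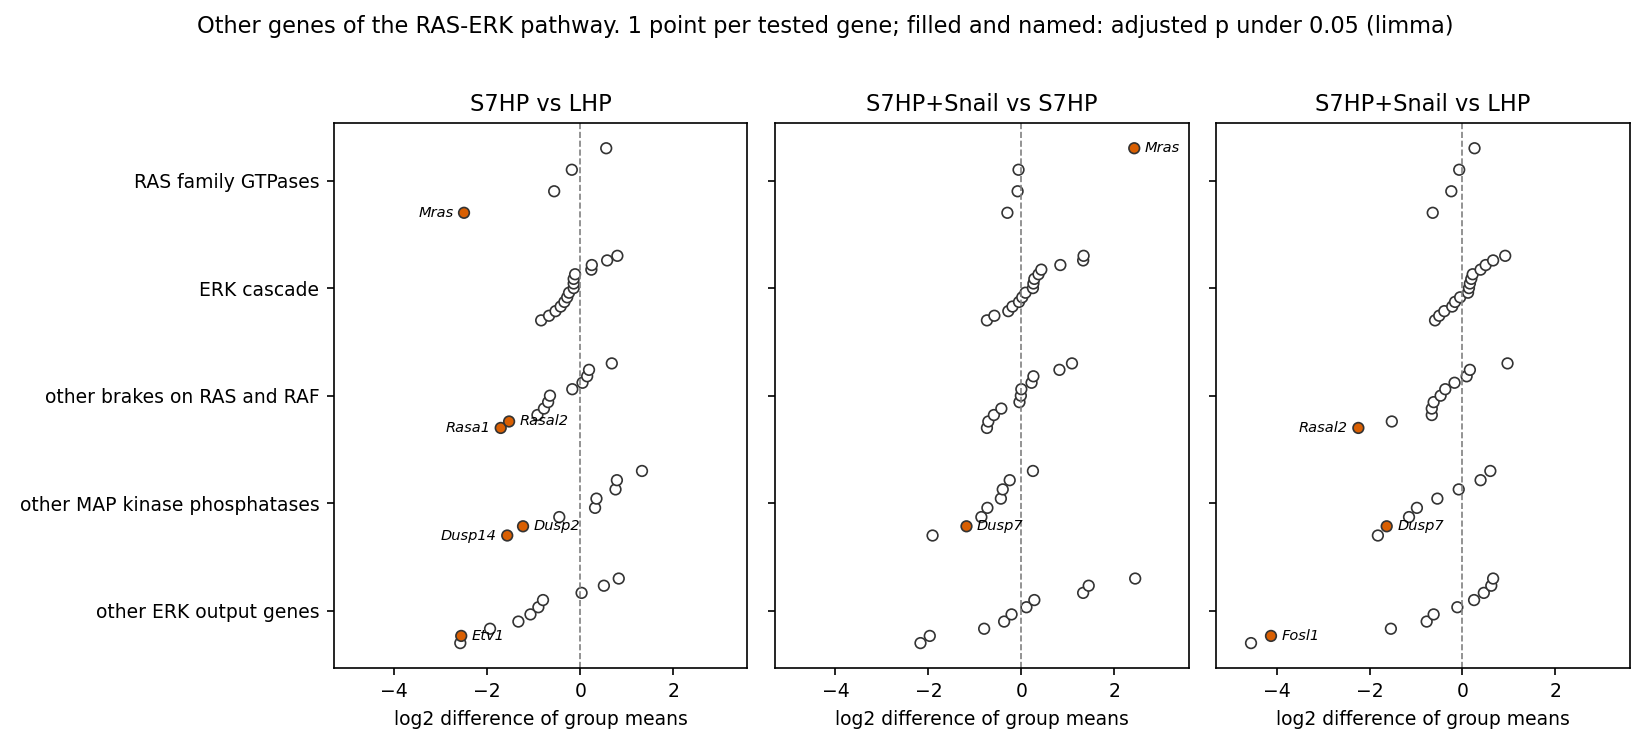
Log2 differences between group means of the 48 tested genes in 5 lists of the RAS-ERK pathway, 1 point per gene, for the 3 comparisons. Filled, named points passed at an adjusted p under 0.05, and those of Mras lie at -2.50 in S7HP against LHP and at 2.43 in S7HP+Snail against S7HP.

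Likeness across the 9 tumors was measured as the root mean square difference between the centred log2 values of genes, over 9567 tested genes with a mean log2 value of at least 7. The genes most like Hras were Hgs (0.13), Pacsin2 (0.14) and Vps72 (0.15), against a median of 0.69. The genes most like Dusp6 were Ypel3 (0.20), Laptm4a (0.22) and Egfl7 (0.23), against a median of 0.77. Like Dusp6, all 3 were higher in each S7HP+Snail tumor than in each LHP tumor, with Egfl7 at 11.59, 11.27 and 11.19 in LHP and 12.11, 12.51 and 12.31 in S7HP+Snail. These likenesses are descriptions over libraries that share 3 groups. The genes were chosen for likeness over these same 9 tumors, so a shared separation of groups is largely built into the choice.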

How the data were processed

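Expression was measured in 9 mouse liver tumors, 3 per group. Per the labels' protocols, Trizol RNA (500 ng) went into a QuantSeq library kit. Whether reads lie at 3′ ends was not checked, so levels were not compared between genes. Bowtie2, edgeR and mm10 are named in the submitters' processing notes, with no version or role. For the counting tool and annotation nothing is given in the sources used. The deposited log2 values are those of quantile-normalized counts with 1 added, judged from the values: the highest is 20.06 in each file, unlogged totals lie between 19910396 and 19911234, and 9 times the unlogged value is whole within 0.001 for 100% of values above 0 and below 500. Library depth is therefore unknown, and no count test was run.

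A gene was kept where 3 or more libraries reached a log2 value of 4 (14215 genes). All 9 libraries were fitted in limma 3.58.1 (R 4.3.3) with trend and robust set in the variance step and 6 residual degrees of freedom, with two-sided tests and Benjamini-Hochberg adjustment over all kept genes. The fit was run on simulated data with independent noise, as a check of the code. That run does not bear on the calls made here. The members and lists were chosen with earlier results of these data known, and 2 listed genes are not reported here. Pathway genes named are up to 3 called genes per list and comparison with the smallest adjusted p, or, where none was called, those with the largest differences. For Hras and Dusp6 the 3 most similar genes are named. Positions are from GENCODE mouse M21 on GRCm38, the assembly that mm10 names. Alternatives were another filter, pseudocount (16), scaling, variance model and set of libraries, with each library left out in turn. Figures used matplotlib 3.10.9 (Python 3.11.15).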

Additional observations from a re-analysis of the deposited data

How the results depend on the processing

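Over 16 alternatives, 27 differences of the 9 tested genes gave 432 values, of which 382 kept their direction and their side of the threshold, 34 lost a call, 6 gained one and 10 changed sign. The changes of sign came from leaving out 1 library, none with a call. Over the 9 libraries left out, S7HP minus LHP ranged from -0.33 to 0.60 for Dusp4 and from -0.40 to 0.27 for Spry2, and S7HP+Snail minus S7HP from -0.02 to 0.85 for Spry1. S7HP+Snail minus LHP ranged from -0.52 to 0.14 for Hras, from -0.62 to 0.28 for Spry4 (0.14 without S7HP+Snail tumor 13), from -0.08 to 1.30 for Etv5 and from -0.15 to 0.57 for Spry2 (-0.04 and -0.11 without LHP tumors 3 and 6). In S7HP against LHP, with 2702 genes and 2 of the 9 called, 1488 genes and 1 of the 9 were called with no filter on low values, which tests more genes, and 4 of the 9 with only the 2 groups compared in the fit. Leaving out 1 library gave 1386 to 3154 genes and 0 to 3 of the 9. In S7HP+Snail against S7HP, with 327 genes and 1 of the 9 called, no filter gave 69 genes and 0 of the 9, only the 2 groups gave 119 genes and 0, and no intensity trend gave 0 of the 9. Leaving out 1 library gave 62 to 445 genes and 0 to 2 of the 9. In S7HP+Snail against LHP, with 1026 genes and 2 of the 9 called, no filter gave 325 genes and 0 of the 9, only the 2 groups gave 681 genes and 0, and no intensity trend gave 1 of the 9. Leaving out 1 library gave 240 to 1045 genes and 0 to 2 of the 9. Fewer libraries leave fewer degrees of freedom, and other causes of these shifts were not tested. No paired analysis was possible because the groups share no replicate numbers. The alternatives for pathway genes were chosen after seeing the data.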
